A study of Mus musculus with 15 samples.

Results

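Myc and the genes of ribosome biogenesis were followed as a set of 35 genes in mouse bone marrow progenitors that carry altered alleles of Cebpa, the gene of the myeloid transcription factor C/EBPα. The set was given as a list of symbols, and each gene was read from the probe set that carries only that symbol, taking the brightest over the 15 arrays where a gene had several. Of the 35 genes, 34 were measured, out of 19937 genes tested on the array. The exception was Ppan, a factor of large subunit assembly, whose probe set carries several symbols. The rule for probe sets uses no measured difference between groups, but the members themselves were chosen with earlier results of these data known.

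Cells were sorted from female C57BL/6 mice 3 weeks after conditional deletion, and 5 groups of 3 arrays were compared on Affymetrix Mouse Gene 1.0 ST arrays. Granulocyte-macrophage progenitors (GMPs; Lin-, Sca1-, cKit+, CD150-, CD41-, FcgRII+) came from cebpa fl/p30, cebpa fl/BRM2 and cebpa fl/+ mice with Mx1Cre. The more immature pre-granulocyte-macrophage cells (preGMs; the same surface profile but FcgRII- and Endoglin-) came from fl/p30 mice with Mx1Cre and from +/+ mice whose genotype is labelled Mx1Ce. The arrays came from 12 animals, because preGMs and GMPs of fl/p30 were sorted from the same 3 animals, which carry the same replicate number in both cell types. In these alleles fl is the floxed copy that Cre removes, p30 is a copy that yields the short C/EBPα isoform without the amino-terminal activation domain, and BRM2 is a copy with a mutated basic region that binds DNA but represses E2F factors poorly. After deletion a fl/p30 or fl/BRM2 cell therefore keeps only the altered copy, a fl/+ cell keeps a single normal copy, and +/+ cells keep both, so the control of the GMP comparisons and the control of the preGM comparison are of different genotype. Mx1-Cre is driven by an interferon-inducible promoter and acts in most blood cells, not in myeloid progenitors alone.

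Myc binds E-box DNA with its partner Max and drives cell growth, and a large share of that programme serves the making of ribosomes. RNA polymerase I transcribes ribosomal RNA in the nucleolus, box C/D and box H/ACA particles guide its methylation and pseudouridylation, and separate sets of factors process and fold the small and the large subunit. In myeloid progenitors C/EBPα is known to hold back E2F-dependent transcription and Myc as cells leave the cycle and mature.

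Because these genes are classed by their link to Myc, the canonical E-box CACGTG was looked for in the RefSeq promoter windows of the members (GRCm38.p6; 250 bases before to 50 bases after the transcription start). The motif reads the same on both strands. It stood in 5 of 28 members with a window (17.9%), against 9.5% of 15613 tested genes with one. The other spelling CACGCG, with its reverse CGCGTG, stood in 8 of 28 members (28.6%), against 14.9% of the tested genes. The stretches that hold the canonical motif, in capitals, are shown with the distance of its first base from the start site.
Nop2, chr6:125131811-125131840, plus strand, -60: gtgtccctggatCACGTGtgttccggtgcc
Pes1, chr11:3963965-3963994, plus strand, 3: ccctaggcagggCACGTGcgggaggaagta
Wdr43, chr17:71616220-71616249, plus strand, 18: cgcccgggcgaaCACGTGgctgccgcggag
Tsr1, chr11:74898092-74898121, plus strand, 25: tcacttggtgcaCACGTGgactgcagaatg
Mybbp1a, chr11:72441355-72441376, plus strand, 41: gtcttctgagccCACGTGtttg
A match is a description of these letters and says nothing of binding. The values of these 5 genes are given below beside those of the members without the motif.

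All values are log2 expression as deposited. The 15 array medians lay between 6.03 and 6.23, and every group mean of all 34 members was above the median of all values, 6.12. Single values of members ran between 6.20 and 12.3. Pearson correlations between arrays over all genes were 0.923 to 0.988. Arrays have no read depth, so the number of arrays limits the precision. Of the sort markers, Kit averaged 10.30 in GMP fl/p30, 10.01 in GMP fl/BRM2, 9.79 in GMP fl/+, 10.29 in preGM fl/p30 and 10.37 in preGM +/+. Fcgr3, an Fc gamma receptor gene, averaged 9.30, 9.39 and 9.30 in the GMP groups in the same order, against 6.95 in preGM fl/p30 and 6.32 in preGM +/+. Fcgr2b, the gene of an FcgRII receptor, averaged 7.59 in fl/p30, 7.62 in fl/BRM2 and 8.66 in fl/+ GMPs (-1.07 in fl/p30 against fl/+, adjusted p = 0.051). Itga2b, the gene of CD41, against which the gate selects, averaged 7.95, 7.89 and 6.90 in the same order and was called higher in fl/p30 than in fl/+ (limma, adjusted p = 0.0244). Eng, the gene of Endoglin, averaged 7.24 in preGM fl/p30 and 7.45 in preGM +/+, though the preGM gate selects against it. It averaged 6.87, 6.835 and 6.71 in the GMP groups in the same order. Its difference was -0.74 in GMP fl/+ against preGM +/+ (limma, adjusted p = 0.00639) and -0.37 over the fl/p30 step (0.272). The T-cell gene Cd3e averaged 6.04 to 6.31 in all groups, near the array medians, but it does not stand for its list. The 14 T and NK genes lay at 0.37 to 0.38 in GMP fl/p30, against -0.45 to -0.32 in GMP fl/+ (mean deviations from gene means). In GMP fl/BRM2 that list lay at -0.18 to 0.01. Cebpa itself averaged 9.07 in fl/p30, 8.64 in fl/BRM2 and 8.38 in fl/+ GMPs, 9.09 in preGM fl/p30 and 8.57 in preGM +/+. Its probe set reads the transcript, so it does not show which isoform is made and does not check the alleles.

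A small number of arrays stood apart in these genes and enter most comparisons. The mean deviation of the 34 members from their means over all arrays was -0.41, -0.01 and 0.09 in GMP fl/p30 replicates 1 to 3, 0.10, -0.13 and 0.11 in GMP fl/BRM2, and 0.24, -0.08 and -0.06 in GMP fl/+. It was -0.24, -0.02 and -0.12 in preGM fl/p30 and 0.20, 0.19 and 0.14 in preGM +/+. GMP fl/p30 replicate 1 held the lowest value of all 15 arrays for 16 members, against 8.85% of all genes, and the lowest of its group for 32 of 34, against 32% of all genes. GMP fl/+ replicate 1 held the highest value of all arrays for 13 members, against 9.38% of all genes. GMP fl/BRM2 replicate 2 held the lowest value of its group for 28 members, against 37.1% of all genes. The median SD of the members was 0.27, 0.15 and 0.24 among the GMP arrays of fl/p30, fl/BRM2 and fl/+, and 0.16 in preGM fl/p30 against 0.10 in preGM +/+. The members were thus the most even in preGM +/+ and the least even in GMP fl/p30. Over all genes the median SD was 0.160, 0.121 and 0.195 in the GMP groups in the same order. It was 0.155 in preGM fl/p30 and 0.115 in preGM +/+, so all genes were also the most even in preGM +/+, but the least even in GMP fl/+.

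**Figure D1:**
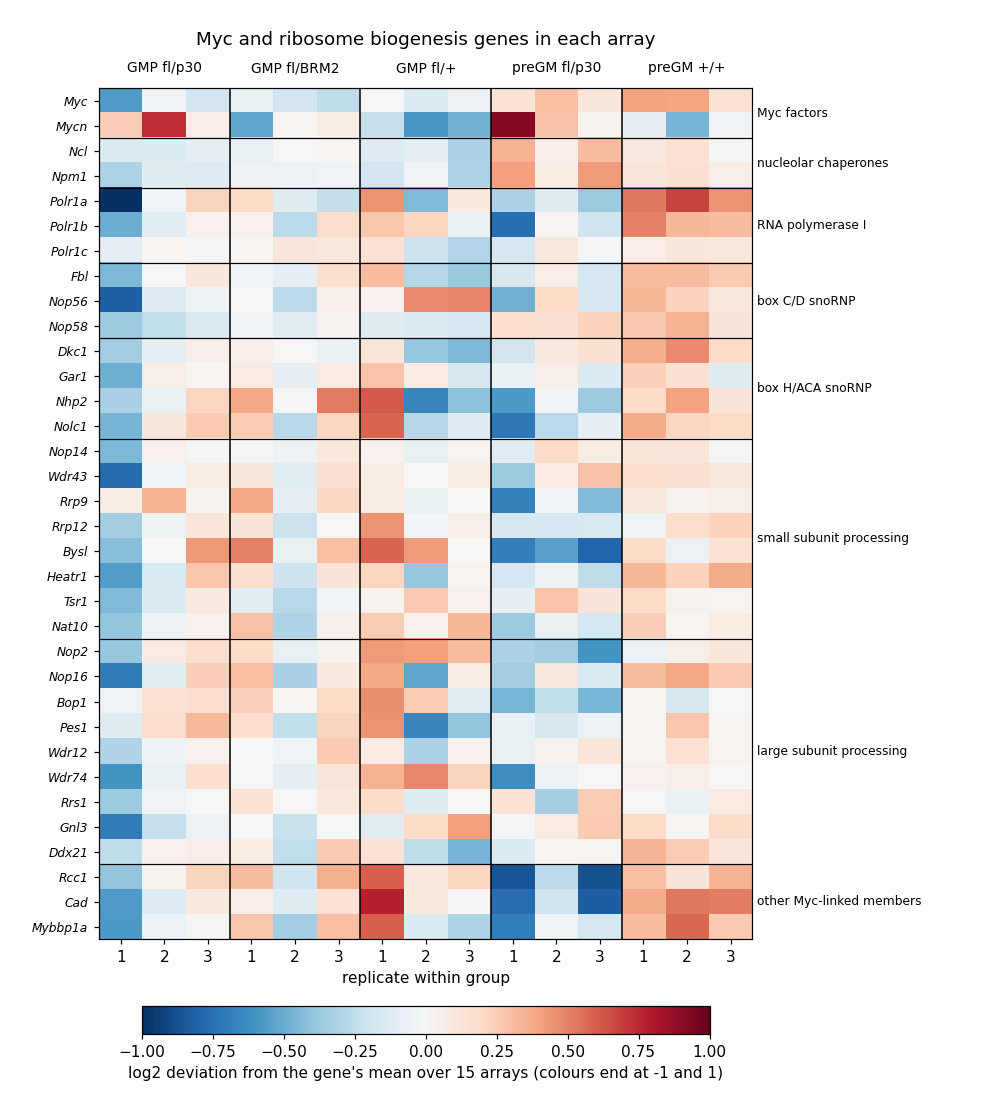
Log2 deviation of each of the 34 measured members (rows, grouped by role) from its mean over the 15 arrays, for each array (columns, replicates 1 to 3 of each group); red is above and blue below the mean, and colours end at -1 and 1. GMP fl/p30 replicate 1 is blue for nearly all members, and preGM +/+ is red or pale for most.

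Of the other gene lists, those of the cell cycle had low points in the same arrays as the members, and the small nucleolar RNA genes followed the members only in part. The 30 E2F and S phase genes lay at -0.56, -0.06 and 0.14 in GMP fl/p30 and at 0.28, -0.04 and 0.04 in GMP fl/+. In preGMs they lay at -0.42, 0.00 and -0.09 in fl/p30, against 0.26, 0.23 and 0.30 in +/+. The lowest levels of the 24 G2 and M phase genes were -0.96, in GMP fl/p30 replicate 1, and -0.51, in the preGM array of the same animal. The 54 small nucleolar RNA genes, chosen after their values were seen in earlier work on these data, lay at -1.21, -0.22 and -0.22 in GMP fl/p30, against -0.42, 0.85 and 1.23 in GMP fl/+. Within GMP fl/+ they were thus lowest in replicate 1, where the members were highest. In preGMs their mean was 0.15 in fl/p30 and -0.01 in +/+, against -0.13 and 0.18 for the members. The part of these lists in the results below was not tested.

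**Figure D2:**
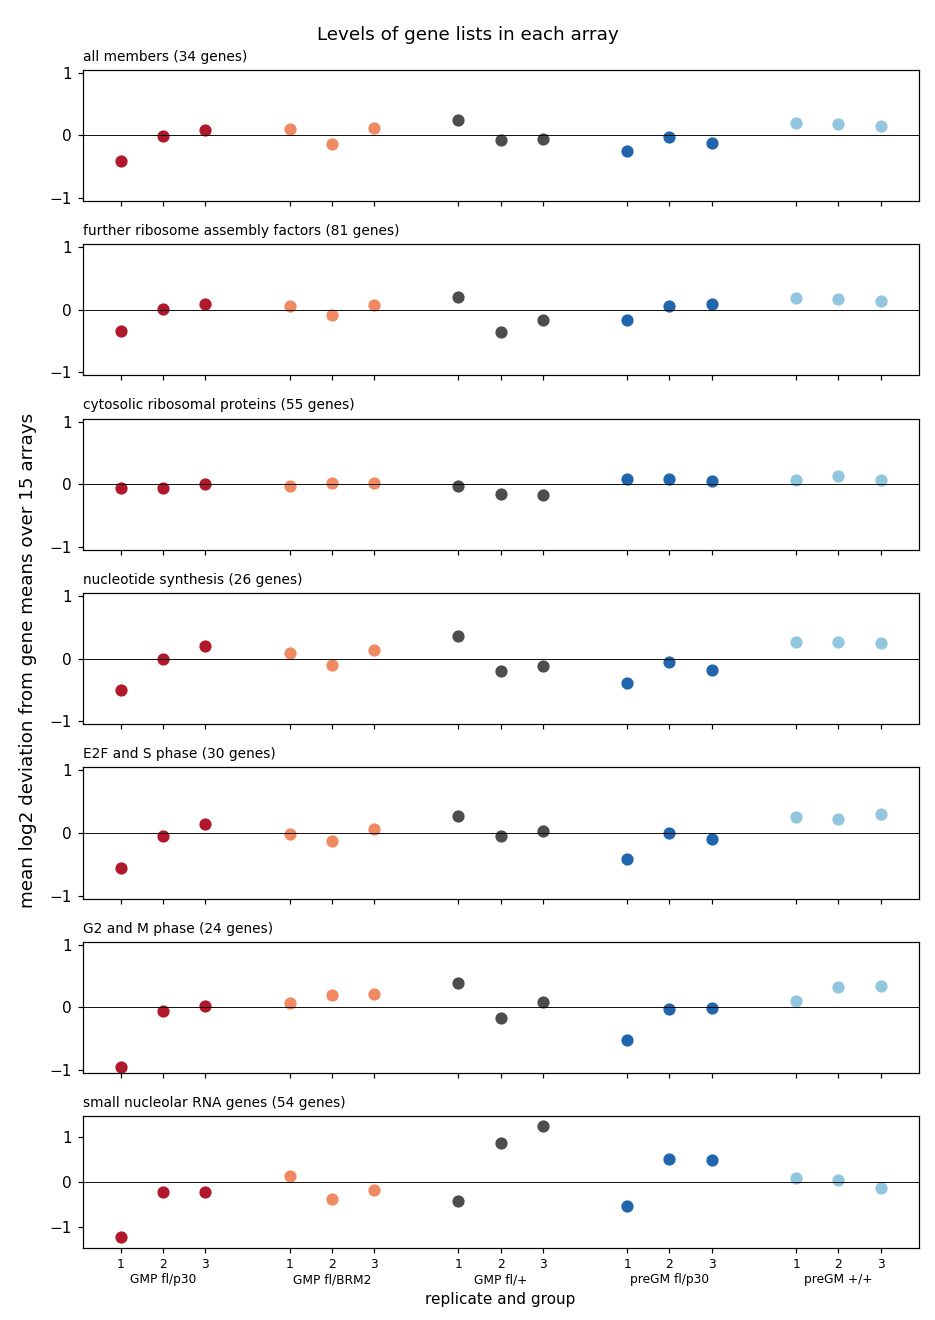
Mean log2 deviation of 7 gene lists from their genes' means over 15 arrays (vertical axis; the scale of the lowest panel differs), for each array by group and replicate (horizontal axis). The members, nucleotide synthesis, S phase and G2 and M phase genes share their low point in GMP fl/p30 replicate 1, and the small nucleolar RNA genes are highest in GMP fl/+ replicates 2 and 3.

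The clearest difference lay in preGMs, the more immature cells, where fl/p30 was compared with +/+. After deletion fl/p30 cells keep only the altered copy and +/+ cells keep both normal copies. Allele and copy number therefore cannot be told apart in this comparison. Cad and Rcc1 fell, 29 of 34 members had a difference below 0 (85.3%, against 44.8% of all genes), and 20 were lower in all 3 fl/p30 arrays than in any +/+ array. Cad encodes the enzyme that starts pyrimidine synthesis and Rcc1 the exchange factor of the GTPase Ran. Beside these 2 of 34 members called lower, 1.03% of all genes were called lower and 1.68% in either direction (limma, adjusted p under 0.05 over all genes). An unadjusted p under 0.05 was reached by 12 members lower and 1 higher, against 7.33% of all genes lower and 6.69% higher. The 20 members that were lower without overlap of the arrays are 58.8%, against 12.8% of all genes, and 1 member was higher without overlap (2.94%, against 12.4%). With arrays centred on the housekeeping list, 13 members in place of 20 were lower without overlap. The share of all genes was not counted under that centring, so the 12.8% does not serve as its background. The median difference of the members was -0.30, against 0.03 over all genes. The members were chosen with earlier results of these data known, so these shares describe the set and are not a blind test. In bulk samples, fewer cells of a type and less RNA per cell cannot be told apart.

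Cad stood at 7.37, 7.93 and 7.30 in preGM fl/p30, against 8.49, 8.65 and 8.64 in preGM +/+. All fl/p30 arrays lay below all +/+ arrays, a 2.09-fold lower level (log2 difference -1.06 ± 0.22 SE, adjusted p = 0.0244 by limma). Rcc1 stood at 7.23, 7.83 and 7.22 in fl/p30, against 8.39, 8.22 and 8.44 in +/+, again without overlap. It was 1.90-fold lower (-0.92 ± 0.21, adjusted p = 0.0395). In both genes replicate 2 was the fl/p30 array closest to +/+. Both calls held without that array and were lost without any other of the 6 arrays (adjusted p up to 0.114 for Cad and 0.178 for Rcc1, with differences of -0.95 and -0.82 at the weakest). With both replicate 1 arrays of fl/p30 left out, adjusted p was 0.0749 for Cad and 0.117 for Rcc1. Mybbp1a, a nucleolar Myb-binding protein gene with the E-box shown above, stood at 8.56, 9.20 and 9.07 in fl/p30, against 9.56, 9.82 and 9.51 in +/+ (-0.68, adjusted p = 0.232).

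**Figure D3:**
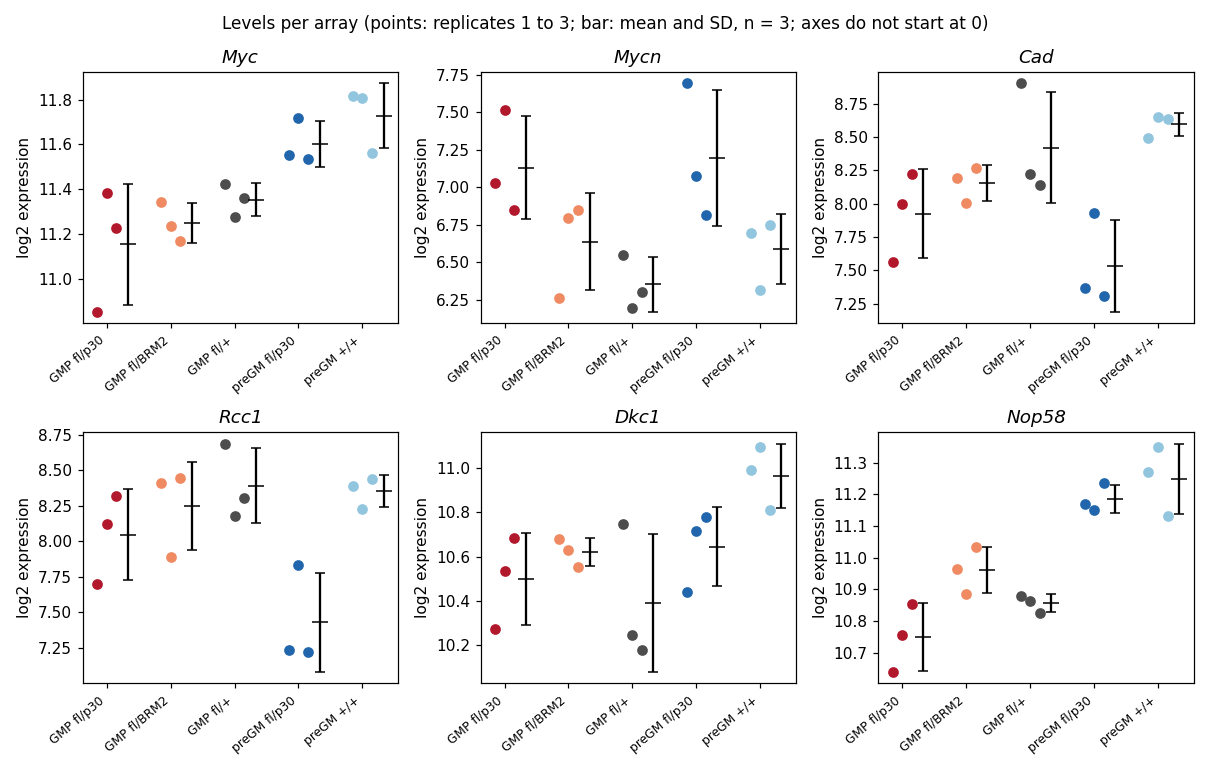
Log2 expression of Myc, Mycn, Cad, Rcc1, Dkc1 and Nop58 in each array (points, replicates 1 to 3) with the group mean and SD (bars, n = 3 arrays); the vertical axes do not start at 0. Cad and Rcc1 in preGM fl/p30 lie below all preGM +/+ arrays, and Nop58 lies lower in the 3 GMP groups than in both preGM groups.

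The Myc factors did not show the same pattern. Myc stood at 11.55, 11.72 and 11.53 in preGM fl/p30, against 11.82, 11.81 and 11.56 in preGM +/+. The groups overlapped, and the difference was -0.13 with a 95% interval from -0.41 to 0.15 (adjusted p = 0.714). Mycn, the paralogue used in stem and early progenitor cells, stood at 7.70, 7.08 and 6.81 in fl/p30, against 6.70, 6.32 and 6.75 in +/+. It was the member higher without overlap (0.61 ± 0.23, adjusted p = 0.259). The nucleolar chaperone genes were also not below +/+: Npm1, which shuttles ribosomal particles, stood at 12.28, 11.94 and 12.29 in fl/p30, against 11.99, 12.02 and 11.92 in +/+ (0.19, adjusted p = 0.473). Ncl, the gene of nucleolin, differed by 0.17 (adjusted p = 0.492). For both, replicates 1 and 3 of fl/p30 were above all +/+ arrays and replicate 2 was not.

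All 3 RNA polymerase I subunit genes had a difference below 0 in fl/p30 preGMs. Polr1a, the largest catalytic subunit, stood at 8.16, 8.35 and 8.11 in fl/p30, against 9.0, 9.15 and 8.92 in +/+ (-0.82 ± 0.27, adjusted p = 0.173). Polr1b, its catalytic partner, stood at 7.29, 8.07 and 7.85 in fl/p30, against 8.55, 8.38 and 8.36 in +/+ (-0.69 ± 0.19, adjusted p = 0.105). Neither gene overlapped between the groups, and neither passed the test. Polr1c, a subunit shared with RNA polymerase III, averaged 9.81 ± 0.14 in fl/p30 and 9.93 ± 0.03 in +/+ (SD, n = 3 each).

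In the particles that modify ribosomal RNA, differences were below 0 for all 7 genes. Fbl, the methyltransferase fibrillarin, stood at 11.57, 11.80 and 11.56 in fl/p30 preGMs, against 12.04, 12.04 and 11.999 in +/+ (-0.38, adjusted p = 0.346). Its box C/D partners Nop56 and Nop58 averaged 11.02 ± 0.34 and 11.18 ± 0.04 in fl/p30, against 11.39 ± 0.11 and 11.25 ± 0.11 in +/+, with overlap. Among box H/ACA genes, Nolc1, a nucleolar chaperone of these particles, stood at 8.84, 9.29 and 9.48 in fl/p30, against 9.93, 9.78 and 9.76 in +/+ (-0.62, adjusted p = 0.269). Nhp2, a core protein, stood at 9.56, 10.11 and 9.77 in fl/p30, against 10.32, 10.54 and 10.26 in +/+ (-0.56, adjusted p = 0.369). Dkc1, the pseudouridine synthase dyskerin, differed by -0.32 (adjusted p = 0.383), and these 3 genes did not overlap between the groups, whereas Gar1, the remaining core protein gene, did (9.75 ± 0.10 in fl/p30 and 9.88 ± 0.19 in +/+).

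Among 8 genes of small subunit processing 7 had a difference below 0 and 5 did not overlap. Bysl, the gene of bystin, stood at 7.40, 7.54 and 7.29 in fl/p30 preGMs, against 8.27, 8.03 and 8.23 in +/+ (-0.77 ± 0.21, adjusted p = 0.0941). Rrp9, a component of the particle that cuts the early ribosomal RNA precursor, stood at 6.56, 7.21 and 6.79 in fl/p30, against 7.34, 7.27 and 7.29 in +/+ (-0.45, adjusted p = 0.209). Heatr1, a large scaffold of the small subunit processome, stood at 9.90, 10.01 and 9.81 in fl/p30, against 10.40, 10.29 and 10.44 in +/+ (-0.47, adjusted p = 0.289). None of the 3 passed the test. Rrp12, an export and processing factor, averaged 7.02 ± 0.01 in fl/p30 and 7.30 ± 0.14 in +/+, and the RNA acetyltransferase gene Nat10 8.40 ± 0.15 in fl/p30 and 8.72 ± 0.12 in +/+, both without overlap. Nop14, a processome factor, stood at 9.59, 9.88 and 9.76 in fl/p30, against 9.81, 9.81 and 9.68 in +/+, with overlap. Of the 2 genes here with the E-box, Tsr1, a late maturation factor, averaged 9.84 ± 0.18 in fl/p30 and 9.81 ± 0.09 in +/+, and Wdr43, a processome component, averaged 11.12 ± 0.34 in fl/p30 and 11.26 ± 0.03 in +/+, both with overlap.

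Among the 9 measured genes of large subunit processing 8 had a difference below 0 and 6 did not overlap. Nop2, a methyltransferase of the large subunit RNA that carries the E-box, stood at 8.29, 8.26 and 8.01 in fl/p30 preGMs, against 8.55, 8.67 and 8.72 in +/+ (-0.46 ± 0.14, adjusted p = 0.136). Bop1 and Pes1 form a complex with Wdr12 that matures the large subunit. Bop1 stood at 6.87, 7.08 and 6.87 in fl/p30, against 7.34, 7.16 and 7.32 in +/+ (-0.34, adjusted p = 0.289). Pes1, which carries the E-box, averaged 8.12 ± 0.06 in fl/p30 and 8.33 ± 0.14 in +/+, without overlap, and Wdr12 averaged 10.36 ± 0.10 in fl/p30 and 10.40 ± 0.07 in +/+, with overlap. Nop16 stood at 9.62, 10.08 and 9.82 in fl/p30, against 10.29, 10.36 and 10.23 in +/+, and Ddx21, a nucleolar helicase gene, at 9.80, 9.96 and 9.96 in fl/p30, against 10.27, 10.19 and 10.06 in +/+, both without overlap. Wdr74, a late large subunit factor, averaged 9.22 ± 0.34 in fl/p30 and 9.49 ± 0.03 in +/+, also without overlap. Gnl3, the gene of nucleostemin, averaged 11.05 ± 0.14 in fl/p30 and 11.07 ± 0.10 in +/+, and Rrs1, an assembly factor, averaged 10.28 ± 0.31 and 10.26 ± 0.07 in the same order, so the members were not uniformly lower.

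**Figure D4:**
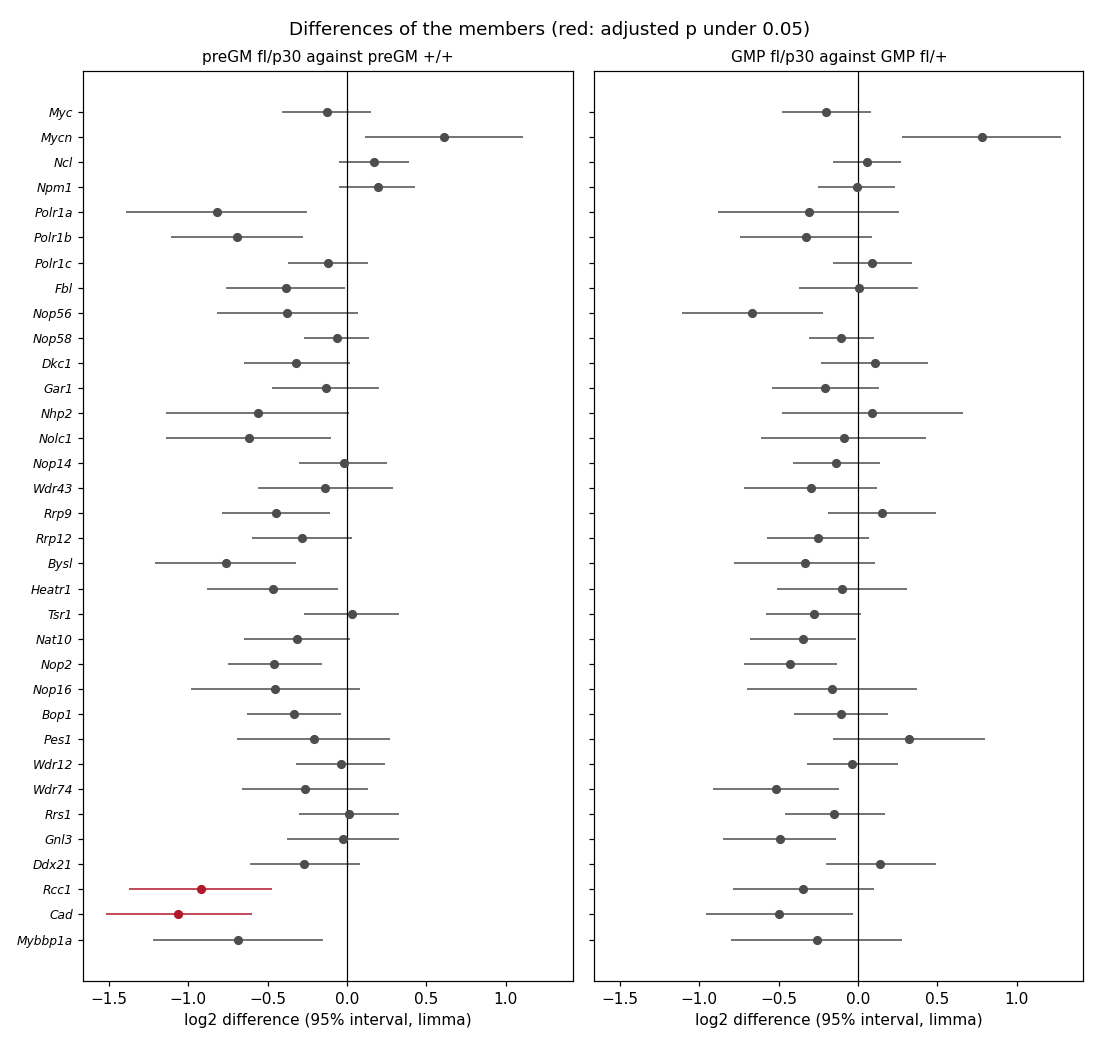
Log2 difference of each of the 34 members (dots) with its 95% interval from the limma fit (lines) for preGM fl/p30 against preGM +/+ (left) and GMP fl/p30 against GMP fl/+ (right); red marks an adjusted p under 0.05. Cad and Rcc1 in preGMs are the red members, and most dots lie below 0 in both panels.

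Lists of other genes of growth were read in the same preGM comparison. The lists hold genes named for their function and were drawn up with earlier results of these data known. Of 26 nucleotide synthesis genes 0 passed the test, 24 had a difference below 0 and 14 had an unadjusted p under 0.05, and the median was -0.47, against 0.03 over all genes. Shmt2, the mitochondrial serine hydroxymethyltransferase that feeds folate units to nucleotide synthesis, averaged 9.33 in fl/p30 and 10.51 in +/+ (-1.18 ± 0.29, adjusted p = 0.0603). Of 81 further ribosome assembly factors 1 fell and 63 were below 0 (median -0.16). The gene called was Urb1, a large subunit assembly factor, at 6.29 in fl/p30 and 7.06 in +/+ (-0.77, adjusted p = 0.0308), and its call held only without preGM fl/p30 replicate 2 among single arrays left out. Of 32 further growth targets of Myc 1 fell and 29 were below 0 (median -0.25). That gene was Ccnd1, the gene of cyclin D1, at 7.36 in fl/p30 and 8.46 in +/+ (-1.10 ± 0.15, adjusted p = 0.00274), and its call held without each single array.

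The ribosomal proteins themselves did not share the pattern. Of 55 cytosolic ribosomal protein genes read by a probe set of their own, 0 passed the test by limma, 1 had an unadjusted p under 0.05 and 28 were below 0 (median 0.00). These genes have many processed copies in the genome, so their probe sets may read several. Of 38 translation factor genes 0 were called and 28 were below 0 (median -0.17). In the Myc network, the partners and antagonists of Myc, 0 of 18 were called, and in the further RNA polymerase I genes 0 of 17, with 10 below 0 in each. An unadjusted p under 0.05 was reached by 3 genes of each of the translation factor and Myc network lists and by 1 further polymerase gene.

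Marker lists of mature and of other cells also differed between the preGM groups, in both directions. The 14 primary granule genes lay at -1.33 to -1.15 in fl/p30, against -0.23 to -0.01 in +/+, and the 14 monocyte and dendritic genes at -0.57 to -0.44 in fl/p30, against 0.59 to 0.87 in +/+. The S phase list lay below all +/+ arrays in all fl/p30 arrays (-0.42 to 0.00, against 0.23 to 0.30). The 16 secondary granule genes lay at -0.83 to -0.76 in fl/p30, against 0.16 to 0.94 in +/+. Higher in all fl/p30 arrays were the 12 erythroid genes (0.14 to 0.19, against -0.24 to 0.00 in +/+), the 14 T and NK genes (0.15 to 0.21, against -0.24 to -0.02), the 9 megakaryocyte genes (0.06 to 0.42, against -0.35 to -0.05) and the 12 stroma and endothelium genes (-0.07 to 0.06, against -0.25 to -0.17). The B lymphoid list overlapped and reached 1.66 in preGM +/+ replicate 3. The part of maturation, cycling or cell mixture in the members' values was not tested.

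What the p30 allele changes in GMPs was asked against fl/+, the control arrays that the BRM2 comparison below shares. None of the 34 members passed the test there (limma; smallest adjusted p = 0.0648), where 6.06% of all genes were called. At an unadjusted p under 0.05, 6 members were lower (17.6%) and 1 was higher (2.94%), against 8.18% of all genes lower and 11.8% higher. Differences below 0 were found for 25 members (73.5%), against 58.1% of all genes, with a median of -0.16, against -0.04. The arrays did not overlap for 4 members that were lower (11.8%, against 8.27% of all genes) and 1 that was higher (2.94%, against 9.16%). Marker lists moved in the same arrays. The erythroid list lay at 0.03 to 0.67 in fl/p30, against -0.86 to -0.73 in fl/+, the megakaryocyte list at -0.07 to 0.38, against -0.49 to -0.35, and the T and NK list at 0.37 to 0.38, against -0.45 to -0.32. The secondary granule list lay at -0.84 to 0.36 in fl/p30, against 0.51 to 0.98 in fl/+, without overlap, and the primary granule list at -0.74 to 0.96, against 0.73 to 1.20, with overlap. Their part in the members' values was not tested.

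Mycn stood at 7.03, 7.52 and 6.85 in GMP fl/p30, against 6.55, 6.20 and 6.30 in GMP fl/+. All fl/p30 arrays lay above all fl/+ arrays, by 0.78 ± 0.23 (95% interval 0.28 to 1.28, adjusted p = 0.0648). Myc stood at 10.85, 11.38 and 11.23 in fl/p30, against 11.42, 11.28 and 11.36 in fl/+. They overlapped, and the difference was -0.20 (95% interval -0.48 to 0.08, adjusted p = 0.444), with replicate 1 of fl/p30 the lowest. In both cell types Mycn was above its control in every fl/p30 array, and in neither did it pass the test, though in GMPs its adjusted p was 0.0476 when dim genes were left out of the adjustment.

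Of the members lower in GMP fl/p30, Nop56, a core protein of box C/D particles, stood at 10.35, 11.04 and 11.12, against 11.22, 11.64 and 11.66 in fl/+ (-0.67 ± 0.21, adjusted p = 0.0777). Nop2 stood at 8.23, 8.69 and 8.77 in fl/p30, against 9.03, 9.02 and 8.92 in fl/+ (-0.43 ± 0.14, adjusted p = 0.0892). Wdr74 stood at 8.86, 9.39 and 9.61 in fl/p30, against 9.80, 9.93 and 9.68 in fl/+ (-0.52, adjusted p = 0.122). In these 3 genes, and in Nat10 (-0.34, adjusted p = 0.239), the groups did not overlap and the first fl/p30 array was the lowest. Gnl3 stood at 10.24, 10.71 and 10.89 in fl/p30, against 10.83, 11.14 and 11.36 in fl/+ (-0.49, adjusted p = 0.102), with overlap. Cad stood at 7.56, 7.995 and 8.22 in fl/p30, against 8.90, 8.22 and 8.14 in fl/+ (-0.50, adjusted p = 0.212). Here too the groups overlapped, and GMP fl/+ replicate 1 stood well above the other fl/+ arrays.

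Rcc1, Bysl and Polr1b, lower without overlap in fl/p30 preGMs, differed by -0.34, -0.33 and -0.33 in GMPs, each with an interval that included 0. The counts of calls in GMPs depended on single arrays. Without GMP fl/+ replicate 1, 4 members were called, Mycn and Pes1 higher and Nop56 and Gnl3 lower (11.8%, against 15.4% of all genes in the same setting). Without GMP fl/p30 replicate 3, 5 were called, Mycn higher and Nop56, Nop2, Gnl3 and Wdr74 lower (14.7%, against 7.69% of all genes). No member was called without any other single array. Without GMP fl/p30 replicate 1, the lowest array, the members' median was -0.03. Small nucleolar RNA genes lie within 7 measured members (Ncl, Nop56, Nop58, Dkc1, Wdr43, Tsr1 and Gnl3), and in GMP fl/+ those 7 lay at -0.01, 0.05 and 0.01, against 0.31, -0.11 and -0.08 for the other 27. GMP fl/+ replicates 2 and 3 had the highest small nucleolar RNA levels. Of the 7, Nop56 and Gnl3 were higher in both of these arrays than in replicate 1, and Dkc1 was lower in both (10.25 and 10.18, against 10.75 in replicate 1), so the 7 did not move together. The part of those levels was not tested.

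In the further lists 6 of 271 genes were called in GMP fl/p30 against GMP fl/+, a smaller share than the 6.06% of all genes. Mxd4, an antagonist of Myc for Max, rose (8.92 in fl/p30 and 8.22 in fl/+, 0.70 ± 0.19, adjusted p = 0.0478), the only 1 of 18 Myc network genes called. Among 81 assembly factors Nle1 and Ddx51 fell (-0.83 and -0.60, adjusted p = 0.0143 and 0.0246), both large subunit factors, while 36 of 81 were below 0. In nucleotide synthesis Pfas, a purine synthesis enzyme, fell (-0.65, adjusted p = 0.0265) and Ctps2, a CTP synthase, rose (0.59, adjusted p = 0.0367), out of 26. The small nucleolar RNA host gene Snhg5 fell (-0.99, adjusted p = 0.0374), 1 of 4 host genes. Leaving out GMP fl/+ replicate 2 or 3, or the low array GMP fl/p30 replicate 1, ended each of these 6 calls, with adjusted p values as high as 0.193, and so did fitting only the groups compared. By limma 0 of 55 ribosomal protein genes, 0 of 38 translation factors, 0 of 17 polymerase genes and 0 of 32 growth targets were called, with 9, 7, 5 and 6 at an unadjusted p under 0.05. In that order 10, 10, 5 and 17 genes were below 0, with medians of 0.11, 0.20, 0.19 and -0.02. The median was -0.16 for the members and -0.04 over all genes.

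In GMPs with the BRM2 allele, compared with fl/+, the members lay on both sides. None of the 34 was called (limma; smallest adjusted p = 0.268), where 2.53% of all genes were, and 1 had an unadjusted p under 0.05, against 15% of all genes. Differences below 0 were found for 16 members (47.1%, against 54.5% of all genes), and the median was 0.01, against -0.02 over all genes. Nop2 stood at 8.79, 8.53 and 8.64 in fl/BRM2, against 9.03, 9.02 and 8.92 in fl/+ (-0.33, 95% interval -0.63 to -0.04, adjusted p = 0.268). Wdr74 differed by -0.34 and Tsr1 by -0.25, also without overlap (3 of 34 members lower, 8.82%, against 8.51% of all genes, and 2 higher, 5.88%, against 6.74%). Nhp2 had the highest difference, 10.52, 10.11 and 10.65 in fl/BRM2, against 10.74, 9.48 and 9.72 in fl/+ (0.45, adjusted p = 0.494), and it turns on fl/+ replicate 1. Without that array Nhp2 and Pes1 were called higher (Nhp2 0.83, adjusted p = 0.0177; 5.88% of members, against 11.1% of all genes), and against that array alone Nhp2 differed by -0.32. Myc stood at 11.34, 11.24 and 11.17 in fl/BRM2, against 11.42, 11.28 and 11.36 in fl/+ (-0.10, 95% interval -0.38 to 0.18), and Mycn differed by 0.29 (-0.21 to 0.79). The erythroid list lay at -0.09 to 0.76 in fl/BRM2, against -0.86 to -0.73 in fl/+, and the secondary granule list at -0.38 to 0.47, against 0.51 to 0.98, and their part was not tested. In the 8 further lists 0 genes were called by limma, with 53 of 271 at an unadjusted p under 0.05.

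Set against each other, GMP fl/p30 and GMP fl/BRM2 did not differ in any member at an adjusted p under 0.05 by limma, and 0.00502% of all genes were called. A single member, Nop58, had an unadjusted p under 0.05, against 3.45% of all genes. It stood at 10.64, 10.76 and 10.85 in fl/p30, against 10.96, 10.89 and 11.03 in fl/BRM2 (-0.21, 95% interval -0.42 to -0.01). Differences below 0 were found for 32 of 34 members, against 52.3% of all genes, with a median of -0.16, against -0.01. That count rests on fl/p30 replicate 1, since without it the median was 0.00. Ncl, Npm1 and Nop58 were lower without overlap (8.82%, against 3.66% of all genes), and 0 members were higher without overlap, against 4.67%. Mycn differed by 0.49 with an interval that reached 0 (-0.01 to 1.0), and Nhp2 by -0.35 (-0.93 to 0.22). The intervals are wide, so these values do not show that the alleles act alike on the members.

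**Figure D5:**
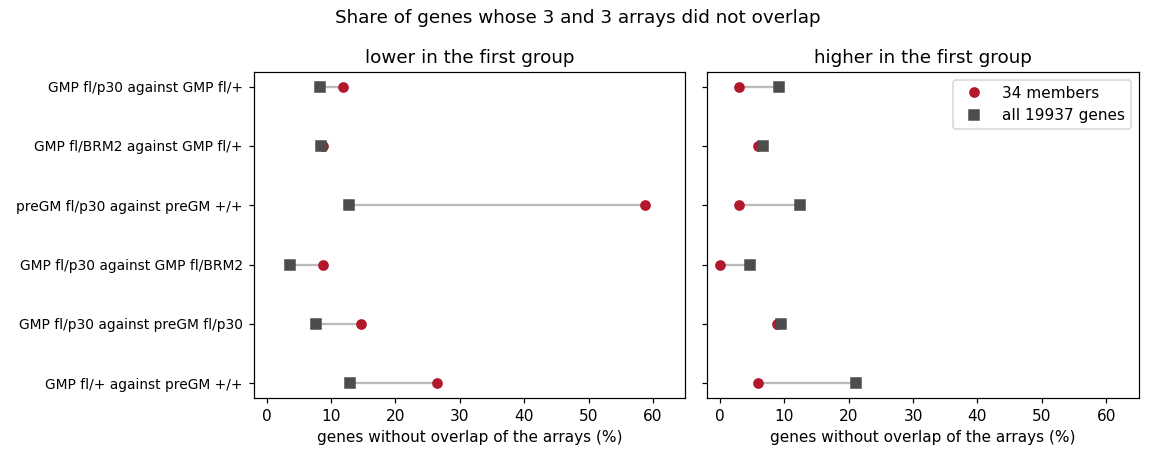
Share of genes (percent, horizontal axis) whose 3 arrays of the group named first lay all below (left) or all above (right) the 3 arrays of the group named second, for the 34 members (red dots) and all 19937 genes (grey squares) in 6 comparisons (rows). The share of members lower in preGM fl/p30, 58.8% against 12.8% of all genes, is the widest gap.

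The step between preGM and GMP was read separately in fl/p30 and in control mice. In fl/p30 mice the members moved to both sides, with 16 differences above 0 and 18 below (below 0 for 52.9%, against 44.4% of all genes; median -0.01, against 0.03). None was called in the fit without animals (limma; smallest adjusted p = 0.0575), where 0.642% of all genes were. An unadjusted p under 0.05 was found for 5 members on each side, against 7.19% of all genes higher and 5.23% lower. The same 3 animals gave both cell types, and with the animal as a random block (correlation 0.304) 6 members were called (17.6%), and 681 of all genes (3.42%) in place of 128. By that fit Nop58 (adjusted p = 0.0109), Npm1 (0.019), Ncl (0.036) and Myc (0.0387) fell, and Bop1 (0.0381) and Rrp9 (0.0381) rose. With the animal as a fixed term in the 6 arrays alone 0 members and 71 genes were called by limma. Without preGM fl/p30 replicate 2, Npm1 was called in the fit without animals (adjusted p = 0.0397).

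Nop58 stood at 10.64, 10.76 and 10.85 in GMP fl/p30, against 11.17, 11.15 and 11.23 in preGM fl/p30 (-0.43 ± 0.10). Npm1 stood at 11.56, 11.75 and 11.74 in GMP fl/p30, against 12.28, 11.94 and 12.29 in preGM fl/p30 (-0.49 ± 0.11). Myc, given above by array, differed by -0.45 and Ncl by -0.37. These 4 genes, with Gnl3 (-0.44), were lower in every GMP array (5 of 34, 14.7%, against 7.72% of all genes). On the other side Bysl stood at 7.66, 8.08 and 8.52 in GMP fl/p30, against 7.40, 7.54 and 7.29 in preGM fl/p30 (0.67, adjusted p = 0.169). Rrp9 stood at 7.31, 7.58 and 7.27 in GMP fl/p30, against 6.56, 7.21 and 6.79 in preGM fl/p30 (0.53), and Bop1 at 7.29, 7.47 and 7.50, against 6.87, 7.08 and 6.87 (0.48). These 3 were higher in every GMP array (8.82%, against 9.44% of all genes), and Rcc1 (0.62), Nop2 (0.37) and Cad (0.39) were higher with overlap. The preGM fl/p30 arrays of these genes are the same as in the comparison with preGM +/+ above, so the differences share them.

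Between the control groups GMP fl/+ and preGM +/+, which differ in genotype as well as stage, Nop58 and Dkc1 fell, 2 of 34 members, where 6.02% of all genes were called lower and 10.2% in either direction. Nop58 stood at 10.88, 10.86 and 10.83 in GMP fl/+, against 11.27, 11.35 and 11.13 in preGM +/+ (-0.39 ± 0.10, adjusted p = 0.0216 by limma). Dkc1 stood at 10.75, 10.25 and 10.18 in GMP fl/+, against 10.99, 11.10 and 10.81 in preGM +/+ (-0.57 ± 0.16, adjusted p = 0.0346). Neither gene overlapped, though Dkc1 in GMP fl/+ replicate 1 came close to the lowest preGM array. Myc stood at 11.42, 11.28 and 11.36 in GMP fl/+, against 11.82, 11.81 and 11.56 in preGM +/+, lower in every GMP array (-0.38, adjusted p = 0.0777). Npm1 differed by -0.29, Ncl by -0.25, Ddx21 by -0.43 and Fbl by -0.41, none of them called, and against GMP fl/+ replicate 1 alone Fbl differed by 0.02. Nop2 stood at 9.03, 9.02 and 8.92 in GMP fl/+, against 8.55, 8.67 and 8.72 in preGM +/+, higher in every GMP array (0.34, adjusted p = 0.114).

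Over the whole set, 23 members had a difference below 0 in this comparison (67.6%, against 39.1% of all genes), with a median of -0.19, against 0.09. The arrays did not overlap for 9 members that were lower (26.5%, against 12.9% of all genes) and 2 that were higher (5.88%, against 21.1%). Nop58 kept its call only without preGM +/+ replicate 3 or GMP fl/+ replicate 1, and Dkc1 only without GMP fl/+ replicate 1, with adjusted p values as high as 0.0869 for Nop58 and 0.127 for Dkc1 otherwise. Without GMP fl/+ replicate 1, 7 members were called, all lower: Ddx21, Dkc1, Fbl, Nhp2, Nop58, Pes1 and Polr1c (20.6%, against 23.5% of all genes). Against that array alone 0 were called, and the members' median was 0.01. The housekeeping list lay at 0.19, -0.26 and -0.21 in GMP fl/+, against 0.08, 0.11 and 0.02 in preGM +/+, and with arrays centred on it 0 members were called and the median was -0.03, against 0.25 over all genes. Centring arrays on their medians kept both calls, and fitting only the groups compared, without rescaling, ended both (adjusted p = 0.0972 for Nop58 and 0.114 for Dkc1 by limma).

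Of the 8 further lists, 7 had a median below 0 over the control step, and the 4 small nucleolar RNA host genes had a median of 0.20 with 1 below 0, against 0.09 over all genes. Of their 271 genes 30 were called in either direction, a share close to the 10.2% of all genes called. Of all genes 6.02% were called lower, and 39.1% had a difference below 0. Of 81 assembly factors 8 fell, 0 rose and 72 were below 0, among them Riok2, an atypical kinase of small subunit maturation (8.99 in GMP fl/+ and 9.85 in preGM +/+, -0.86, adjusted p = 0.00415), Ddx52 (-0.82), Rpf1 (-0.70) and Brix1 (-0.68). Of 55 ribosomal protein genes 5 fell and 51 were below 0, including Rpl7a (-0.93), Rplp1 (-0.58), Rps13 (-0.47) and Rpl27a (-0.38). In nucleotide synthesis 5 fell and 1 rose of 26, with Prps2 (-0.93), Rrm1 (-0.77), Ppat (-0.75) and Paics (-0.56) lower. Of 38 translation factors 3 fell (Eif3f, Eif2s3x and Eef1b2), and of 32 growth targets 4 (Ccnd1, Cdk4, Cct2 and Xpo1). The gene of cyclin D1 was 2.80-fold lower (6.98 in GMP fl/+ and 8.46 in preGM +/+, -1.49 ± 0.15, adjusted p = 0.000152). Twistnb, a polymerase I subunit, fell by 0.85 (adjusted p = 0.00422), 1 of 17. Among 18 Myc network genes Bin1 (-0.82) and Mga (-0.70) fell and Mlx (0.83) rose. Of these named genes Riok2, Paics, Ccnd1 and Twistnb kept the call without each single array, and the others lost it without at least 1. Centring on the housekeeping list ended 14 of the 23 named calls, among them all those of ribosomal proteins and translation factors and that of Paics (adjusted p = 0.0841). Fitting only the groups compared ended 17, Paics included (0.0812), and with GMP fl/+ by replicate 1 alone Ccnd1 was the only 1 of the 23 still called.

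In fl/p30 mice 1 gene of these lists passed the test over the step, Nmd3, the adaptor that exports the large subunit (9.51 in GMP fl/p30 and 10.09 in preGM fl/p30, -0.58 ± 0.11, adjusted p = 0.0247 by limma). Its call held only without GMP fl/p30 replicate 3 among single arrays left out. The call was lost with housekeeping centring (adjusted p = 0.0904), another eBayes prior (0.0662) and only the groups compared (0.129). A fixed term for the animal in the 6 arrays (0.115) or for the replicate number (0.0566) also ended it. So did leaving out both replicate 1 arrays of fl/p30 (0.17). It held with the animal as a random block, array weights and centring on array medians. Below 0 were 51 of 81 assembly factors, 42 of 55 ribosomal protein genes, 19 of 32 growth targets and 4 of 4 host genes, against 44.4% of all genes. The other lists leaned less or the other way. Below 0 were 5 of 18 Myc network genes, 9 of 26 nucleotide synthesis genes, 16 of 38 translation factors and 8 of 17 polymerase genes.

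Whether the p30 effect differs between GMPs and preGMs was tested as an interaction in the same fit, with the GMP effect taken against fl/+ and the preGM effect against +/+. These controls differ in genotype, so cell type and control genotype cannot be told apart in it. None of the 34 members differed (limma; smallest adjusted p = 0.297), and 0.00502% of all genes were called. Rrp9 had an unadjusted p under 0.05, against 13.1% of all genes, with 0.60 (95% interval 0.12 to 1.08). The difference was 0.58 for Rcc1 (-0.05 to 1.21), 0.57 for Cad (-0.09 to 1.22), 0.65 for Nhp2 (-0.16 to 1.46) and -0.47 for Gnl3 (-0.97 to 0.03). The intervals are wide, so these values do not show that the p30 effect is alike in both cell types. The members' median was 0.19, against -0.05 over all genes, with 38.2% of members below 0, against 56.4% of all genes. Without GMP fl/+ replicate 1 Nhp2 and Pes1 were called (Nhp2 1.03, adjusted p = 0.0351; 5.88% of members, against 7.43% of all genes), and with GMP fl/+ by that array alone Nhp2 was at -0.11 and the median at -0.07. In the further lists 0 genes were called by limma, with 38 of 271 at an unadjusted p under 0.05.

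For Fbl and Wdr12 another probe set with the same symbol gave differences of another sign in part of the comparisons. Fbl was read from a probe set with a mean of 11.7, and a dimmer one had a mean of 7.76. In preGM fl/p30 against preGM +/+ they gave -0.38 and -0.18, and in GMP fl/+ against preGM +/+ -0.41 and 0.08. Wdr12 had probe sets with means of 10.3 and 10.2, which gave differences of opposite sign in GMP fl/+ against preGM +/+ (-0.13 and 0.13). The preGM values of Fbl thus keep their direction on both probe sets, and its values over the control step do not.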

How the data were processed

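Sorted progenitors from 12 mice gave 15 arrays; 20 ng of total RNA per sample was amplified, per the labels' protocols. The deposited log2 values were made with affy by RMA, which corrects background, normalises between arrays and summarises probes, per the submitters' processing notes; their versions were not given in the sources used here. RMA equalises arrays, so a shift shared by most genes would not be seen. Of 34760 probe sets, 21640 carried a single symbol in the platform annotation, 1321 several and 11799 none; the single symbols gave 19937 genes, each by its brightest probe set. Groups follow the labels, and replicates are separate animals.

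Group means over the 15 arrays were modelled in R 4.3.3 by limma 3.58.1 with eBayes, after the code was tested on simulated data. 7 comparisons were read from it: 6 pairs of groups and an interaction. P-values were adjusted over all genes by Benjamini-Hochberg within each comparison, and an adjusted p under 0.05 was called. List levels are mean deviations of genes from their means over the 15 arrays. Tables and plots were made with Python 3.11.15, pandas 2.3.3 and matplotlib 3.10.9.

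Every member could be named. From other lists the up to 4 called genes with the largest difference were named per comparison, or up to 2 where none was called. The members and lists were chosen with earlier results of these data known.

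The fl/p30 preGM and GMP arrays pair by the animal numbers in the labels. After group means were removed, arrays of the same animal correlated at 0.334, 0.32 and 0.116 over all genes, though GMP replicate 3 and preGM replicate 2, from different animals, also gave 0.154. The other groups share replicate numbers but no animal.

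The alternatives were another eBayes prior, dim genes left out, means over probe sets, other scalings, array weights, the groups compared alone, blocks by animal or replicate number, and leaving out each array. Leaving out both replicate 1 arrays of fl/p30 and using GMP fl/+ replicate 1 alone were chosen after seeing the data.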

Additional observations from a re-analysis of the deposited data

How the results depend on the processing

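With 3 arrays a group, single arrays of GMP fl/+ and GMP fl/p30 limit these results. Members called were 0 in GMP fl/p30 and 0 in GMP fl/BRM2 against GMP fl/+, 2 in preGM fl/p30 against +/+, 0 in GMP fl/p30 against fl/BRM2, 0 over the step in fl/p30, 2 over the step in controls and 0 for the interaction. Leaving out single arrays gave, in that order, 0 to 5, 0 to 2, 0 to 2, 0 to 0, 0 to 1, 0 to 7 and 0 to 2. It gave 20 to 24 members lower without overlap in preGM fl/p30, though fewer arrays overlap less readily and the share of all genes was not counted beside it.

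With only the groups compared in the fit, 6 members were called in preGM fl/p30 (Bysl, Cad, Heatr1, Mybbp1a, Polr1a and Rcc1, all lower) and 0 over the control step. Array weights gave 4 in GMP fl/p30 against fl/+, 6 in preGM fl/p30, 9 over the fl/p30 step, 8 over the control step and 3 for the interaction. Leaving out dim genes gave 1 in GMP fl/p30 against fl/+. Centring on array medians gave 1 in preGM fl/p30 (Rcc1 lost, adjusted p = 0.051). Centring on housekeeping genes gave 0 over the control step and 13 members lower without overlap in preGM fl/p30, a count without its share of all genes. That centring put the median of all genes at -0.14 in GMP fl/p30 and -0.13 in GMP fl/BRM2 against fl/+, at 0.10 in preGM fl/p30, at 0.25 over the control step and at -0.23 for the interaction, with the members at -0.03 over the control step and 0.01 for the interaction.

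For the pairing, the replicate block by animal as a random term gave 6 members over the fl/p30 step, and as a fixed term in those 6 arrays 0. The replicate number as a fixed term, which marks no shared animal in the other groups, gave 1 in preGM fl/p30 (Rcc1 lost, adjusted p = 0.0737) and 1 over the control step (Dkc1 lost, 0.0541). Without both replicate 1 arrays of fl/p30, 0 were called in preGM fl/p30. With GMP fl/+ by replicate 1 alone, 0 were called over the control step, Nhp2 was at -0.32 in fl/BRM2 against fl/+ and at -0.11 for the interaction, Fbl was at 0.018 over the control step, and the members' median was -0.37 in GMP fl/p30 and -0.22 in GMP fl/BRM2 against fl/+, 0.01 over the control step and -0.07 for the interaction. Without GMP fl/p30 replicate 1 that median was 0.00 against fl/BRM2 and 0.17 over the fl/p30 step. The causes were not tested.

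Genes called of all 19937, in the order above, were 1209, 505, 334, 1, 128, 2036 and 1. With only the groups compared they were 172, 131, 1070, 0, 29, 746 and 4. With array weights they were 4063, 2187, 1167, 283, 1948, 4660 and 1991. Leaving out single arrays gave 537 to 3078, 134 to 2218, 101 to 223, 0 to 12, 26 to 120, 636 to 4686 and 0 to 1482.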
